A study of Homo sapiens with 21 samples.

Results

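The transcripts described here belong to 10 genes of heme breakdown and iron handling: the heme oxygenases HMOX1 and HMOX2, the biliverdin reductases BLVRA and BLVRB, the transcriptional repressors BACH1 and BACH2, the ferritin chains FTH1 and FTL, the transferrin receptor TFRC and the iron exporter SLC40A1. They were taken by symbol from 58174 gene identifiers, and all 10 had reads in at least 1 library. The set was selected on the measured HMOX1 values of these libraries, lower with UM171 in control cells and higher with UM171 in sgEPCR cells, with the other 9 genes added for their function, so HMOX1 values are given as a description without a test. RNA came from OCI-AML5, a human acute myeloid leukemia cell line, in 21 libraries that form 7 groups of 3. Control cells were kept in DMSO, the vehicle, for 72 h according to the labels, or exposed to UM171, a small molecule used to expand hematopoietic stem cells in culture, at 500 nM for 6, 24, 48 or 72 h. The study's text gives a lower dose than the labels. The other 6 libraries are labelled as a clone expressing sgEPCR, a guide against PROCR, the gene of the endothelial protein C receptor EPCR, kept for 24 h in DMSO or in UM171 at 500 nM. The study's text speaks of several independent sgEPCR clones, and the labels do not say whether the 3 libraries of a group come from the same clone, so their spread may be between clones or within 1. The labels describe these cells both as EPCR null and as an EPCR knockdown. The labels of the control libraries name no guide, whereas the study's text calls its control cells sgAAVS1. DMSO libraries of control and of sgEPCR cells carry different times, so genotype, clone and time in culture cannot be told apart in that comparison. All control DMSO libraries are labelled 72 h, so at 6, 24 and 48 h UM171 and time in culture cannot be told apart either.

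Heme oxygenase opens the heme ring and releases biliverdin, carbon monoxide and iron. HMOX1 is the inducible enzyme and HMOX2 the constitutive enzyme. Biliverdin reductases convert biliverdin to bilirubin. BACH1 represses HMOX1 and other genes with Maf recognition elements until heme binds it and removes it from DNA, whereas NRF2 with small MAF proteins activates the same elements. Ferritin, a shell of heavy (FTH1) and light (FTL) chains, stores iron, TFRC takes up transferrin-bound iron, and SLC40A1, also named ferroportin, exports it. Iron regulatory proteins bind a short hairpin, the iron-responsive element, in several of these messengers. In a 5′ untranslated region the bound hairpin blocks translation, and in the 3′ untranslated region of TFRC it stabilises the transcript.

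Total expected counts lay between 24.3 M and 51.5 M per library, around a median of 33.9 M. In sgEPCR DMSO replicate 1 and sgEPCR UM171 replicate 2, mitochondrially encoded genes took 35.9% and 32.2% of the counts, against 7.73% to 13.5% in the other 19 libraries, and 54.0% and 51.9% of TPM against 14.1% to 23.8%. These 2 libraries stood apart, and each sgEPCR test at an adjusted p under 0.05 is given with and without them. TPM, transcript abundance scaled for length and library total, is lowered in them for nuclear genes as a whole by the share that mitochondrial genes take. Levels are therefore mainly given as CPM, counts scaled to a common library size after TMM normalization, and TPM, which is per length, serves to compare genes. CPM does not remove shifts of single genes. In sgEPCR DMSO replicate 1 FTL held 967 CPM, against 1747 and 1766 CPM in replicates 2 and 3, and FTH1 225 CPM, against 203 and 207 CPM. PROCR was at 3.07 ± 0.43 CPM (SD, n = 3) in control DMSO and 40.03 ± 0.41 CPM at 24 h of UM171. In sgEPCR cells it was at 4.15 ± 0.51 CPM with DMSO and 6.42 ± 0.40 CPM with UM171, or at 3.89 and 6.64 CPM without the 2 libraries. All 3 sgEPCR DMSO libraries (3.64 to 4.67 CPM) lay above the control DMSO libraries (2.70 to 3.54 CPM), whereas at 24 h of UM171 all sgEPCR libraries lay below the control libraries. Of 9 myeloid markers, 7 or 8 were at 1 TPM or more in every group, with ANPEP at most at 1.14 TPM. Of 7 erythroid markers 0 reached 1 TPM in any group, and the erythroid heme enzyme ALAS2 and AHSP were at 0 in all 21 libraries. Among 7 macrophage markers, C1QA and C1QB were at 0 throughout, and the summed level of the list, nearly all of it MARCO, was 8.72 to 10.2 TPM in DMSO, 7.95 to 9.59 TPM at 6 h, 1.92 to 4.95 TPM from 24 to 72 h and 0.98 to 3.4 TPM in sgEPCR cells. The lymphoid list of 6 genes, with MS4A1 at 0, summed to 27.15 to 29.8 TPM in DMSO, 39.7 to 98.5 TPM with UM171 and 40.8 to 60.9 TPM in sgEPCR cells. The stromal and epithelial list, nearly all of it PECAM1, summed to 42.2 to 46.3 TPM in DMSO, 42.3 to 44.2 TPM at 6 and 72 h, 13.8 to 19.5 TPM at 24 and 48 h and 5.47 to 31.6 TPM in sgEPCR cells. The myeloid list summed to 1606 to 1702 TPM in DMSO, 1756 to 2569 TPM with UM171 and 779 to 1857 TPM in sgEPCR cells. The part of these differences in the results below was not tested, and in bulk RNA fewer cells of a kind and less RNA per cell cannot be told apart.

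HMOX1 (ENSG00000100292, chr22:35380361-35394214 on the plus strand of GRCh38, 5 exons in its canonical transcript) had a high level in untreated control cells and a low level in untreated sgEPCR cells, and UM171 was followed by opposite levels. In control DMSO the 3 libraries held 41.9, 54.0 and 51.8 TPM, from 1703 to 2315 counts. After 6 h of UM171 they held 37.5, 42.7 and 42.9 TPM, and after 24 h 2.88, 3.55 and 3.15 TPM, from 90 to 211 counts. The drop therefore lay between the 6 h and the 24 h libraries. By the fitted values it was 15.8-fold at 24 h relative to DMSO (log2 difference -3.98). That placed HMOX1 at rank 50 from the lowest among 16575 tested genes, a description only, as the set was selected on this fall. At 48 h the libraries held 7.27, 7.18 and 4.62 TPM and at 72 h 3.69, 4.56 and 4.44 TPM, with fitted log2 differences of -2.92 and -3.60. The 6 h libraries differed from DMSO by -0.43.

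In sgEPCR cells the order of vehicle and UM171 was the other way round. The sgEPCR DMSO libraries held 0.19, 1.19 and 1.04 TPM of HMOX1, from 9, 48 and 54 counts, which is the lowest level among the 7 groups. The sgEPCR UM171 libraries held 33.8, 5.83 and 32.5 TPM, from 1342, 262 and 1542 counts. The first sgEPCR DMSO value and the second sgEPCR UM171 value come from the libraries with a high mitochondrial share. In CPM the sgEPCR UM171 libraries held 36.9, 11.4 and 35.4, so the library with the high mitochondrial share remained the lowest of the group on that scale. The fitted log2 difference of UM171 against DMSO in sgEPCR cells was 4.57, and 4.68 without the 2 libraries. Against control DMSO, sgEPCR DMSO differed by -5.60, and by -5.36 without the first sgEPCR DMSO library and the second sgEPCR UM171 library. The response to 24 h of UM171 differed between sgEPCR and control cells by 8.54 on the log2 scale, and by 8.66 without the 2 libraries. With all libraries it ranked 20 from the highest among 15901 genes. That rank too is a description only, as the set was selected on these opposite directions. Ordered by mean CPM, HMOX1 ran from control DMSO (57.4 ± 6.4, SD, n = 3) through UM171 6 h (42.7 ± 2.1), sgEPCR UM171 (27.9 ± 14.3), UM171 48 h (7.49 ± 1.16), UM171 72 h (4.68 ± 0.38) and UM171 24 h (3.64 ± 0.36) to sgEPCR DMSO (1.12 ± 0.53), and no neighbouring groups overlapped in CPM. In TPM the low sgEPCR UM171 library fell within the range of UM171 48 h.

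**Figure D1:**
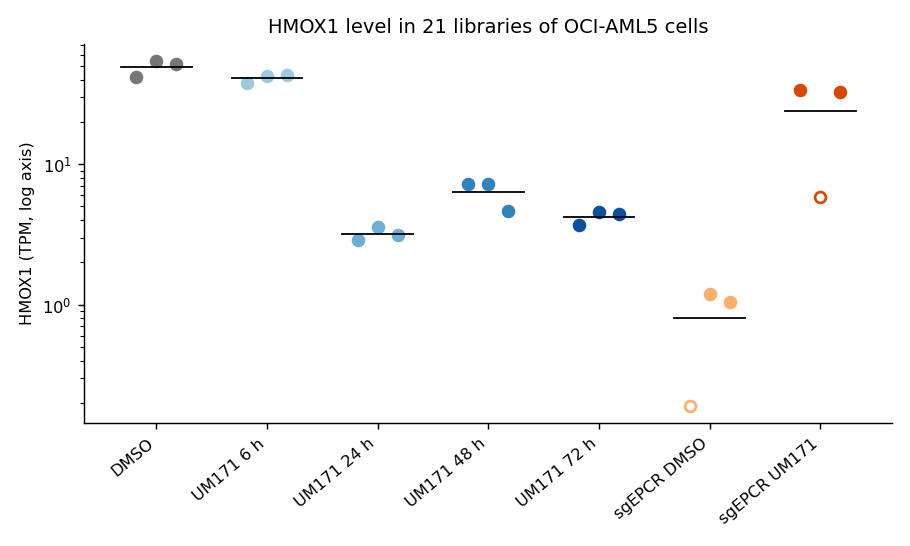
HMOX1 in TPM (log axis) in each of the 21 libraries, by group, with a line at the group mean and open circles for the 2 libraries of high mitochondrial share. Control libraries drop from 37.5 TPM or more at 6 h to 7.27 TPM or less from 24 h on, whereas sgEPCR libraries go from 1.19 TPM or less in DMSO to 5.83 TPM or more in UM171.

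HMOX2, the constitutive heme oxygenase (chr16:4474690-4510347, plus strand), moved far less than HMOX1, and no comparison of UM171 with DMSO raised it. It held 46.4, 46.2 and 44.3 CPM in DMSO, 42.6, 39.3 and 40.4 CPM at 6 h, 43.1, 44.3 and 42.7 CPM at 24 h, 41.6, 38.0 and 36.7 CPM at 48 h, and 25.1, 25.8 and 24.7 CPM at 72 h. The 72 h libraries lay below all others of the control cells, and HMOX2 fell by 0.85 ± 0.05 on the log2 scale there (SE, adjusted p = 4.9e-11). It also fell at 48 h (-0.23 ± 0.05, adjusted p = 0.00035) and at 6 h (-0.16 ± 0.05, adjusted p = 0.0078), but the 48 h call was lost when all 21 libraries entered 1 fit, at 6 h the sign turned with total count scaling (0.02), and the change at 24 h did not pass (-0.08 ± 0.05, adjusted p = 0.16). In sgEPCR cells HMOX2 held 37.1, 46.6 and 46.7 CPM in DMSO and 34.9, 20.9 and 32.9 CPM in UM171. All 3 UM171 libraries lay below the DMSO libraries, and HMOX2 fell by 0.55 ± 0.16 (adjusted p = 0.016), or by 0.46 ± 0.05 without the 2 libraries (adjusted p = 1e-06). With total count or upper quartile scaling and with limma on log2(TPM + 1) or log2(TPM + 0.1) the full set of libraries no longer passed the test, nor did it without sgEPCR DMSO replicate 2 or without sgEPCR DMSO replicate 3. The difference of the 24 h responses was -0.47 ± 0.23 (adjusted p = 0.12) with all libraries and -0.37 ± 0.06 (adjusted p = 9.7e-05) without the 2. HMOX2 shares 103 exonic bases with NMRAL1 on the opposite strand, and the strand setting of the counting is not given in the sources used here.

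Within a library HMOX1 and HMOX2 share the same total, so their ratio is free of library scaling. Shifts of single genes remain in it. HMOX1 made up 40.7% to 47.8% of the summed HMOX1 and HMOX2 TPM in control DMSO, 38.1% to 42.2% at 6 h, 4.58% to 5.48% at 24 h, 9.70% to 12% at 48 h and 9.87% to 10.8% at 72 h. In sgEPCR DMSO it made up 0.946%, 1.77% and 1.98% with the high mitochondrial library lowest, and in sgEPCR UM171 28.3% in the high mitochondrial library and 40.2% and 41.3% in the other libraries. UM171-treated sgEPCR cells thus carried a mix of heme oxygenase transcripts near that of untreated control cells, while untreated sgEPCR cells carried almost only HMOX2. As the ratio contains HMOX1, it is a description.

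The biliverdin reductase genes BLVRA and BLVRB rose with UM171 in control cells. BLVRB (chr19:40447765-40465764, minus strand) held 16.4, 18.2 and 16.5 CPM in DMSO, 17.6, 18.9 and 19.6 CPM at 6 h, 31.7, 35.4 and 34.7 CPM at 24 h, 29.8, 28.7 and 27.6 CPM at 48 h and 38.5, 38.4 and 38.6 CPM at 72 h. It did not pass the test at 6 h (0.13 ± 0.06, adjusted p = 0.073) and rose by 0.99 ± 0.06 at 24 h (adjusted p = 1.3e-10), 0.75 ± 0.06 at 48 h (adjusted p = 4.1e-09) and 1.19 ± 0.06 at 72 h (adjusted p = 5.9e-12). In sgEPCR cells BLVRB held 14.2, 14.5 and 15.7 CPM in DMSO and 16.96, 12.1 and 17.3 CPM in UM171. These groups overlapped only through the second UM171 library, whose mitochondrial share was high, and the change was 0.07 ± 0.13 (adjusted p = 0.67), or 0.18 ± 0.08 without the 2 libraries (adjusted p = 0.049). The 24 h response of BLVRB was smaller in sgEPCR than in control cells, by 0.92 ± 0.18 on the log2 scale (log2 difference -0.92, adjusted p = 0.0018), and the difference was -0.80 ± 0.10 without the 2 libraries (adjusted p = 4.4e-06). With total count scaling and with both limma fits it no longer passed the test.

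BLVRA (chr7:43758680-43807342, plus strand) was read from few fragments, 43 to 230 counts per library, and its errors are wider. It held 1.71, 2.17 and 2.19 CPM in DMSO and 3.14, 3.67 and 3.86 CPM at 6 h, groups that did not overlap. At 24, 48 and 72 h it ranged from 3.13 to 4.94 CPM. BLVRA rose by 0.80 ± 0.16 at 6 h (adjusted p = 0.00032), 0.98 ± 0.16 at 24 h (adjusted p = 2.7e-05), 0.97 ± 0.16 at 48 h (adjusted p = 2.9e-05) and 1.24 ± 0.15 at 72 h (adjusted p = 1.1e-06). In sgEPCR cells it held 2.48, 2.57 and 2.26 CPM in DMSO and 4.81, 2.70 and 3.76 CPM in UM171, and rose by 0.64 ± 0.20 (adjusted p = 0.021), or by 0.83 ± 0.17 without the 2 libraries (adjusted p = 0.00066). That rise did not pass the test with both limma fits, without sgEPCR DMSO replicate 3, or without sgEPCR UM171 replicate 1. The 2 responses differed by -0.34 ± 0.28 (adjusted p = 0.36), or by -0.14 ± 0.23 without the 2 libraries (adjusted p = 0.60), so a difference between genotypes was not detectable. Per length, BLVRB exceeded BLVRA in all 21 libraries: in control DMSO the 2 genes stood at 32.3 ± 2.4 and 3.04 ± 0.46 TPM, and at 72 h at 77.6 ± 2.3 and 7.54 ± 0.49 TPM.

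**Figure D2:**
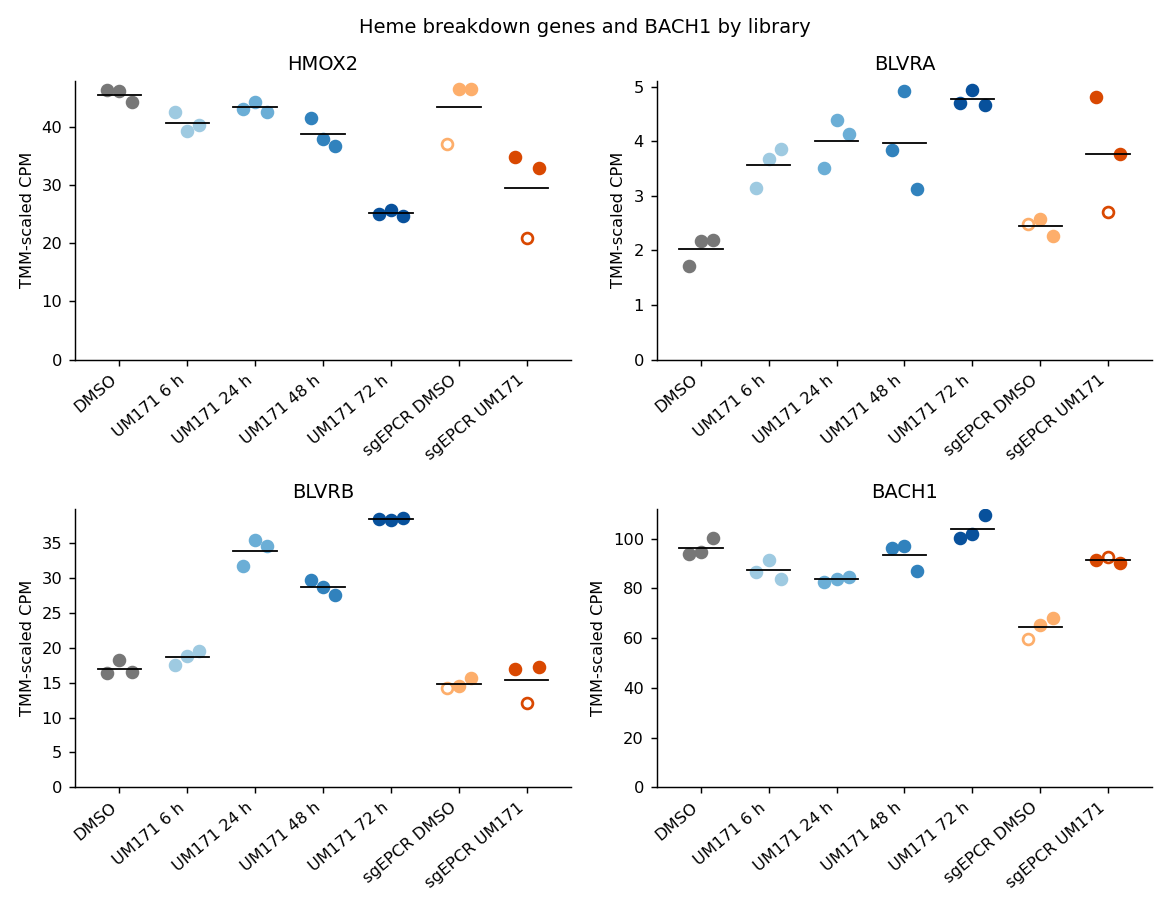
CPM after TMM scaling of HMOX2, BLVRA, BLVRB and BACH1 in each library, by group, with a line at the mean of 3 libraries and open circles for the 2 libraries of high mitochondrial share; axes start at 0 and differ between panels. BLVRB reaches 27.6 to 38.6 CPM in control cells from 24 h on and stays at 19.6 CPM or less in all other groups, and BACH1 is lowest in sgEPCR DMSO (59.4 to 68.2).

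BACH1, the heme-sensitive repressor of HMOX1 (chr21:29194071-29630751, plus strand), changed little with UM171 in control cells. Its libraries held 94.0, 94.6 and 100.3 CPM in DMSO, 86.5, 91.3 and 83.9 CPM at 6 h, 82.7, 83.9 and 84.7 CPM at 24 h, 96.1, 97.2 and 87.0 CPM at 48 h and 100.3, 102 and 109.5 CPM at 72 h. It fell by 0.21 ± 0.05 at 24 h (adjusted p = 0.00093), a call that both limma fits lost. The change at 6 h (-0.14 ± 0.05, adjusted p = 0.016) turned its sign with total count scaling (0.04), that at 48 h did not pass (-0.04 ± 0.05, adjusted p = 0.45), and that at 72 h (0.12 ± 0.05, adjusted p = 0.031) was lost in 12 of the 25 alternatives run for it, among them leaving out DMSO replicate 1 or 2, any UM171 6 h library, UM171 48 h replicate 1 or UM171 72 h replicate 3. In sgEPCR cells BACH1 held 59.4, 65.3 and 68.2 CPM in DMSO and 91.5, 92.5 and 90.4 CPM in UM171, 2 groups without overlap. It rose by 0.52 ± 0.07 with UM171 (adjusted p = 8.3e-05), and by 0.45 ± 0.04 without the 2 libraries (adjusted p = 3.2e-07). Compared with control DMSO it was lower by 0.59 ± 0.07 in sgEPCR DMSO (log2 difference -0.59, adjusted p = 8.9e-05), or -0.54 ± 0.04 without the 2 (adjusted p = 4.2e-08). The 24 h responses differed by 0.72 ± 0.09 (adjusted p = 0.00014), or 0.66 ± 0.06 without the 2 (adjusted p = 8.5e-08). Both limma fits lost all 3 of these calls in sgEPCR cells. BACH1 was lowest in the same group in which HMOX1 was lowest, and rose in the comparison in which HMOX1 was higher. The HMOX1 directions are those on which the set was selected. A link between BACH1 and HMOX1 levels was not tested, and RNA levels do not show BACH1 protein or its binding. BACH2, the related repressor known from lymphocytes (chr6:89926528-90296843, minus strand), had at most 6 counts in any library and 0 counts in all 3 DMSO and all 3 UM171 24 h libraries, so it was not tested.

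Promoter windows from RefSeq, 250 bases before to 50 bases after a start on GRCh38, were held for 8 of the 10 genes, in 11 windows. HMOX1 and FTH1 had no entry. The core of the antioxidant response element, TGACNNNGC on either strand, was in 0 of the 11 windows and in 13.3% of all 35116 promoters. The AP-1-like centre of the Maf recognition element, TGAGTCA, was in a window of BACH1 and in 4.95% of all promoters. Its flank, TGCTGA, was in a window each of BACH1 and BACH2 and in 17.3% of all. The E-box CACGTG was in a window of HMOX2 and in 7.26% of all. These are matches of letters in short windows and say nothing of binding elsewhere.

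FTH1, the heavy chain with the iron-oxidising site (chr11:61959718-61967634, minus strand), followed the pattern of HMOX1 at a much higher level. In control cells it held 893, 846 and 848 CPM in DMSO, 598, 587 and 577 CPM at 6 h, 373, 384 and 369 CPM at 24 h, 410, 386 and 421 CPM at 48 h and 449.8, 457 and 422 CPM at 72 h. No library with UM171 reached the range of DMSO. FTH1 fell by 0.55 ± 0.04 at 6 h (adjusted p = 8.4e-09), 1.21 ± 0.04 at 24 h (adjusted p = 1.8e-13), 1.09 ± 0.04 at 48 h (adjusted p = 4.1e-13) and 0.95 ± 0.04 at 72 h (adjusted p = 1.5e-12), which is 2.31-fold lower at 24 h. In sgEPCR cells it held 225, 203 and 207 CPM in DMSO and 525, 567 and 524 CPM in UM171. Those groups were far apart in every library, those with a high mitochondrial share included. FTH1 rose 2.56-fold with UM171 in sgEPCR cells (log2 1.36 ± 0.07, adjusted p = 1.1e-07), and by 1.36 ± 0.04 without the 2 libraries (adjusted p = 1.4e-12). In DMSO it was 4.08-fold lower in sgEPCR than in control cells (log2 difference -2.03 ± 0.07, adjusted p = 1.4e-07), and -2.08 ± 0.04 without the 2 libraries (adjusted p = 2.1e-13). The 24 h response differed between genotypes by 2.56 ± 0.10 (adjusted p = 6.6e-08), and by 2.57 ± 0.05 without the 2 libraries (adjusted p = 1.1e-13). Its direction and its call at an adjusted p under 0.05 were the same in every alternative fit run in all 7 comparisons. The falls at 6 h and 72 h were under 2-fold and so did not meet the stricter limits. The groups of FTH1 took the same order as those of HMOX1 for the first 3 places and the last, control DMSO, UM171 6 h, sgEPCR UM171 and sgEPCR DMSO, and UM171 24 h was next to last in both. FTH1 shares 1267 exonic bases with BEST1 on the opposite strand, whose counts reached at most 341. Its 25 annotated pseudogenes drew 0.105% to 0.323% of the summed counts.

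FTL, the light chain that favours the mineral core (chr19:48965309-48966879, plus strand), varied little beside FTH1. It held 2329, 2180 and 2206 CPM in DMSO, 1742, 1693 and 1670 CPM at 6 h, 1765, 1943 and 1914 CPM at 24 h, 2139, 1874 and 1902 CPM at 48 h and 1763, 1759 and 1632 CPM at 72 h. It fell by 0.39 ± 0.05 at 6 h (adjusted p = 5.2e-06), 0.26 ± 0.05 at 24 h (adjusted p = 0.00025), 0.18 ± 0.05 at 48 h (adjusted p = 0.0047) and 0.37 ± 0.05 at 72 h (adjusted p = 4.9e-06), and these 4 calls were lost when all 21 libraries entered 1 fit. In sgEPCR cells FTL held 967, 1747 and 1766 CPM in DMSO and 1557, 853 and 1580 CPM in UM171. The lowest library of each group is the one with the high mitochondrial share, and the spread within a group exceeded the difference between them. The change with UM171 was -0.16 ± 0.25 (adjusted p = 0.63) with all libraries and -0.16 ± 0.05 (adjusted p = 0.0092) without the 2. Against control DMSO, sgEPCR DMSO differed by -0.59 ± 0.25 (adjusted p = 0.099), or by -0.36 ± 0.04 without the 2 (adjusted p = 7.5e-06). The difference of the 24 h responses was 0.10 ± 0.36 (adjusted p = 0.85), and 0.11 ± 0.06 without the 2 (adjusted p = 0.14). The 16 annotated FTL pseudogenes drew 0.338% to 0.564% of the summed counts.

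The 2 ferritin chains together took 0.592% to 0.600% of TPM in control DMSO and 0.390% to 0.499% with UM171. In sgEPCR cells they took 0.343% and 0.344% in DMSO and 0.425% and 0.431% in UM171, and 0.0925% and 0.150% in the libraries with a high mitochondrial share. The FTH1 to FTL ratio of TPM was 0.406 to 0.427 in control DMSO, 0.361 to 0.374 at 6 h, 0.206 to 0.227 at 24 h, 0.205 to 0.236 at 48 h and 0.273 to 0.280 at 72 h. In sgEPCR DMSO it was 0.122 and 0.124, and 0.214 in the library with the high mitochondrial share, whereas in sgEPCR UM171 it was 0.355 and 0.357, and 0.665 in the library with the high mitochondrial share. The ferritin transcript pool was thus poorer in heavy chain with UM171 in control cells and richer in heavy chain with UM171 in sgEPCR cells, with or without the 2 libraries.

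**Figure D3:**
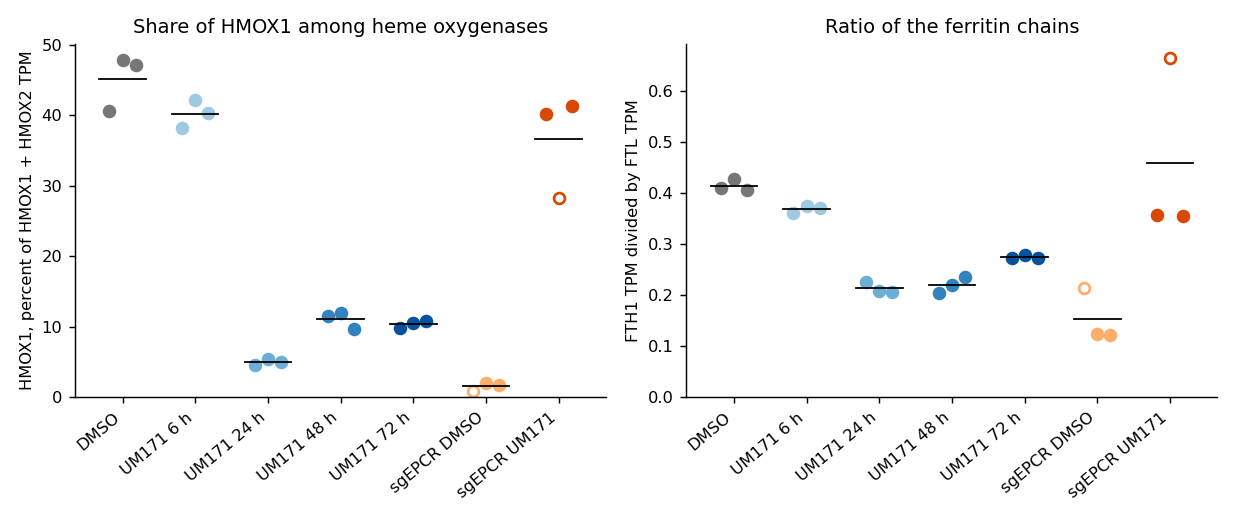
Left, HMOX1 as a percent of the summed TPM of HMOX1 and HMOX2, and right, FTH1 TPM divided by FTL TPM, in each library by group, with a line at the mean of 3 libraries and open circles for the 2 libraries of high mitochondrial share. Both measures are low in UM171 24 h (4.58% to 5.48% and 0.206 to 0.227). They are lower in sgEPCR DMSO except for the FTH1 to FTL ratio of its high mitochondrial library (0.214). Both are high in control DMSO, UM171 6 h and sgEPCR UM171.

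TFRC, which imports iron-laden transferrin (chr3:196012511-196082153, minus strand), and SLC40A1, the only known cellular iron exporter (chr2:189560590-189583758, minus strand), carry the same kind of hairpin as FTL, but in different places. The iron-responsive elements are printed here because they set these messengers apart by position. FTH1 was not searched here, so nothing is said of a hairpin in its messenger. The search took a bulged C, 5 bases, the loop CAGTGN and 5 bases that all pair with the former, in the canonical GENCODE version 44 transcripts, read 5′ to 3′ as DNA. Capitals mark the bulged C and the loop. Sites that depart from this form were not counted. The search found 1 site in the 5′ untranslated region of FTL, at chr19:48965336-48965363. It found 1 in the 5′ untranslated region of SLC40A1, at chr2:189580661-189580688 on the minus strand. In the 3′ untranslated region of TFRC it found 4, between chr3:196050463-196050490 and chr3:196050979-196051006 on the minus strand. These are given here from the first to the last in the transcript.
FTL 5′: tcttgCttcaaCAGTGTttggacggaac
SLC40A1 5′: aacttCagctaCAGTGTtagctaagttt
TFRC 3′, start 196050979: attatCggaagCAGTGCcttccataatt
TFRC 3′, start 196050575: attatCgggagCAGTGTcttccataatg
TFRC 3′, start 196050510: tgtatCggagaCAGTGAtctccatatgt
TFRC 3′, start 196050463: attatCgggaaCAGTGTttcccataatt
A site of this form is found in 1.31% of 19701 canonical protein-coding transcripts. The match is of letters, and RNA levels alone do not show whether a hairpin was bound.

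Against the DMSO libraries labelled 72 h, TFRC was lower at 6 and 72 h of UM171 but not at 24 and 48 h. It held 345, 339 and 351 CPM in control DMSO, 194, 199 and 196 CPM at 6 h, 384, 378 and 356 CPM at 24 h, 375, 390.0 and 331 CPM at 48 h and 185, 165 and 191 CPM at 72 h. TFRC fell by 0.82 ± 0.06 at 6 h (adjusted p = 2.5e-09) and by 0.93 ± 0.06 at 72 h (adjusted p = 8.6e-11), whereas the changes at 24 h (0.11 ± 0.05, adjusted p = 0.098) and 48 h (0.08 ± 0.05, adjusted p = 0.18) did not pass. At 6 h only 333 of 16575 tested genes had a lower fitted log2 change. In sgEPCR cells TFRC held 436, 506 and 515 CPM in DMSO and 249, 229.6 and 243 CPM in UM171, with the DMSO group the highest of all 7 groups. It fell by 1.01 ± 0.08 with UM171 (adjusted p = 1.7e-06), or by 1.05 ± 0.04 without the 2 libraries (adjusted p = 2e-11). Against control DMSO it was higher by 0.49 ± 0.08 in sgEPCR DMSO (adjusted p = 0.00063), or 0.55 ± 0.04 without the 2 (adjusted p = 9.6e-09), but limma on log2(TPM + 1) turned that sign (-0.04). The 24 h responses differed by -1.12 ± 0.11 (adjusted p = 1.8e-05), or -1.15 ± 0.05 without the 2 (adjusted p = 1.4e-10). Both limma fits also lost the call of the fall in sgEPCR cells and that of the difference of the responses, and total count scaling lost that between genotypes. In both sgEPCR groups TFRC stood opposite to FTH1, high where FTH1 was lowest, and lower where FTH1 had risen. In control cells they did not mirror each other, since both fell at 6 h and at 72 h.

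SLC40A1 rose in every comparison of UM171 with DMSO. It was a low transcript, 30 to 469 counts per library, at 2.04, 2.25 and 2.06 CPM in control DMSO, 11.1, 11.8 and 11.4 CPM at 6 h, 4.49, 4.67 and 4.02 CPM at 24 h, 5.37, 5.13 and 5.89 CPM at 48 h and 6.48, 7.48 and 8.03 CPM at 72 h. The highest level was thus at 6 h, and the level at 72 h exceeded those at 24 and 48 h. SLC40A1 rose 5.40-fold at 6 h (log2 2.43 ± 0.10, adjusted p = 8.9e-12), 2.08-fold at 24 h (1.06 ± 0.11, adjusted p = 1.5e-07), 2.57-fold at 48 h (1.36 ± 0.11, adjusted p = 4.4e-09) and 3.49-fold at 72 h (1.803 ± 0.10, adjusted p = 5e-11). In sgEPCR cells it held 1.73, 1.88 and 1.90 CPM in DMSO and 4.21, 5.71 and 4.06 CPM in UM171, and rose by 1.34 ± 0.16 (adjusted p = 3.6e-05), or by 1.13 ± 0.14 without the 2 libraries (adjusted p = 3.6e-06). The 24 h responses differed by 0.29 ± 0.22 (adjusted p = 0.35), or 0.08 ± 0.18 without the 2 (adjusted p = 0.77), so no difference between genotypes was detectable for the exporter. The DMSO groups differed by -0.20 ± 0.16 (adjusted p = 0.36), or by -0.17 ± 0.14 without the 2 (adjusted p = 0.34).

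**Figure D4:**
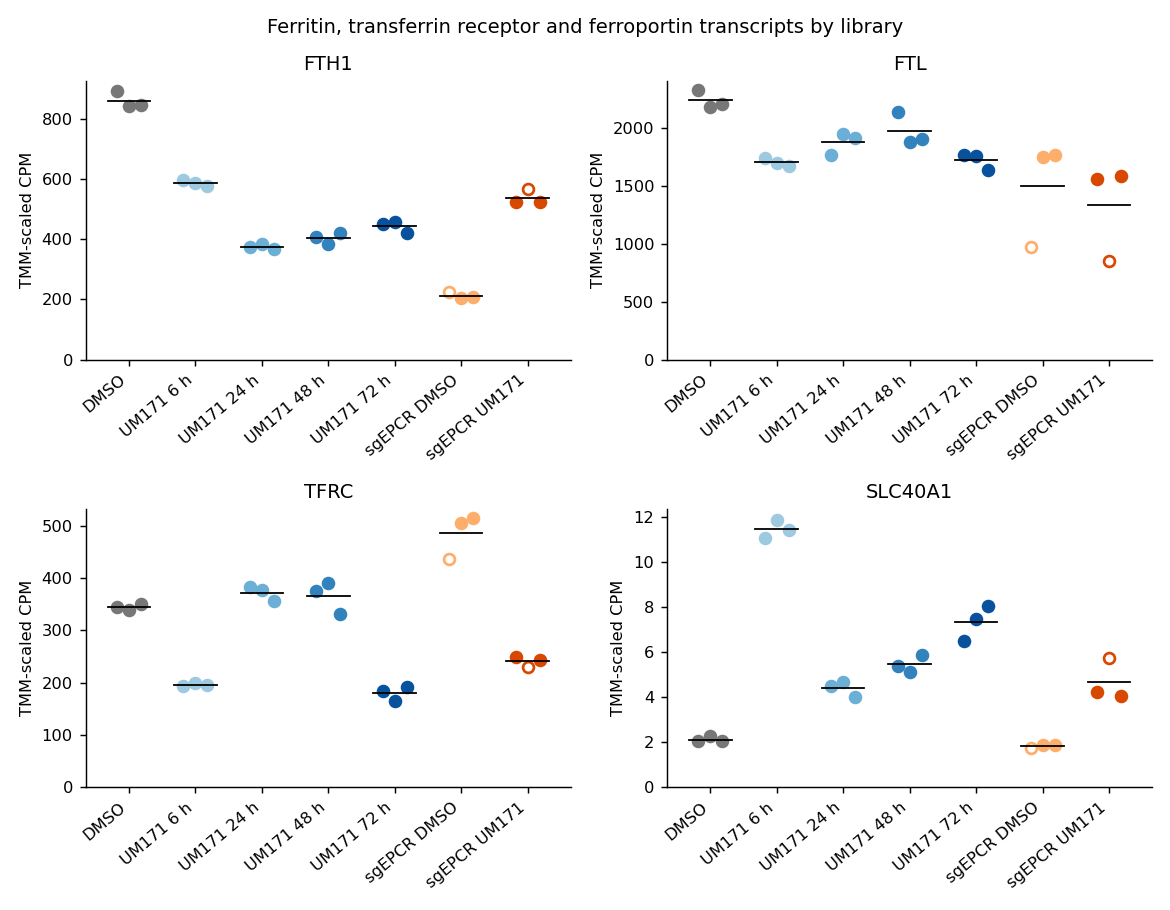
CPM after TMM scaling of FTH1, FTL, TFRC and SLC40A1 in each library, by group, with a line at the mean of 3 libraries and open circles for the 2 libraries of high mitochondrial share; axes start at 0 and differ between panels. FTH1 is lowest and TFRC highest in sgEPCR DMSO, and SLC40A1 peaks at 6 h of UM171 (11.1 to 11.8).

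Without HMOX1, 8 of the genes were tested in each comparison, and calls were made at an adjusted p under 0.05. At 6 h 2 rose and 5 fell, beside 31.8% and 30.3% of all tested genes. At 24 h 3 rose and 3 fell, beside 34.9% and 34.8%, at 48 h again 3 and 3, beside 37.1% and 35.0%, and at 72 h 4 rose and 4 fell, beside 38.8% and 36.8%. All of these contrasts share the same 3 DMSO libraries. Most tested genes were called at each time, and the counts of the 8 genes are no result about them. In sgEPCR cells UM171 raised 4 and lowered 2 (background 27.0% and 25.1%), or 5 and 3 without the 2 libraries (34.5% and 36.4%). Between genotypes in DMSO, 1 was higher and 2 lower in sgEPCR cells (17.4% and 16.3%), or 1 and 4 without the 2 libraries (30.3% and 30.0%). For the difference of the 24 h responses, 2 were higher (FTH1 and BACH1; 21.9% of all genes) and 2 lower (BLVRB and TFRC; 23.1%), or 2 and 3 without the 2 libraries (33.6% and 35.6%). At the study's stricter limits, an adjusted p under 0.0001 and over 2-fold, the counts were 1 at 6 h (SLC40A1; background 7.03%), 2 each at 24 h (13.7%) and 48 h (16.4%), FTH1 and SLC40A1 in both, 3 at 72 h (BLVRA, BLVRB and SLC40A1; 20.8%), 3 in sgEPCR cells (FTH1, TFRC and SLC40A1; 10.3%), 1 between genotypes in DMSO (FTH1; 2.84%) and 2 for the difference of the responses (FTH1 and TFRC; 7.77%). The median log2 change of the 8 genes was between -0.20 and 0.29 over the 7 comparisons, against -0.02 to 0.02 for all tested genes. These medians are a description.

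**Figure D5:**
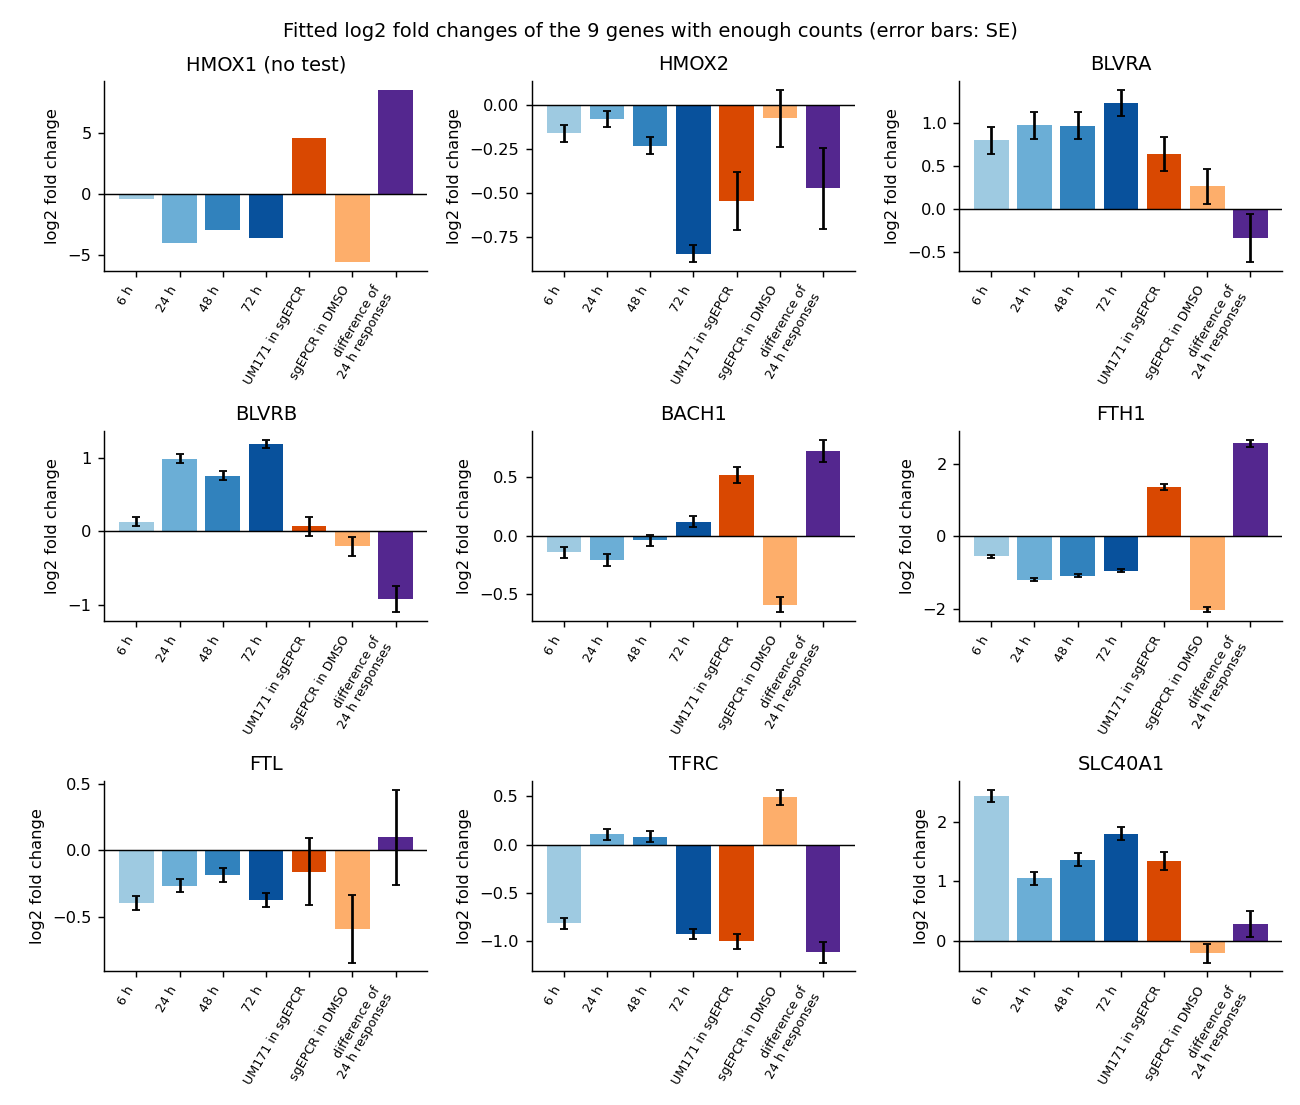
Fitted log2 fold changes of the 9 genes with enough counts in 7 comparisons: UM171 for 6, 24, 48 and 72 h against DMSO in control cells, UM171 against DMSO in sgEPCR cells, sgEPCR against control cells in DMSO, and the difference of the 24 h responses (sgEPCR minus control). Error bars are standard errors, HMOX1 is without a test, and the axes differ between panels. HMOX1 and FTH1 change sign between the control and the sgEPCR comparisons of UM171, whereas BLVRA and SLC40A1 are above 0 and HMOX2 is below 0 in all of them.

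Per length, the 10 genes spanned a wide range in control DMSO. FTL (4210 ± 57 TPM) and FTH1 (1741 ± 28 TPM) came first, followed by TFRC (144 ± 6 TPM), HMOX2 (59.4 ± 1.6 TPM), HMOX1 (49.2 ± 6.4 TPM), BACH1 (34.2 ± 0.8 TPM), BLVRB (32.3 ± 2.4 TPM), BLVRA (3.04 ± 0.46 TPM) and SLC40A1 (1.07 ± 0.02 TPM), with BACH2 at 0. BACH1 and BLVRB overlapped there, and the other neighbours did not. At 24 h of UM171 HMOX1 (3.19 ± 0.34 TPM) lay below BLVRA (6.16 ± 0.69 TPM), and in sgEPCR DMSO it lay near SLC40A1 (0.807 ± 0.54 and 0.71 ± 0.30 TPM, or 1.115 and 0.885 TPM without the first library).

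Heme synthesis, the source of the substrate, was followed with 8 enzymes, of which 7 were tested. At 72 h 4 rose and 0 fell, beside 38.8% and 36.8% of all tested genes, led by CPOX (0.49 ± 0.06, adjusted p = 3.7e-07), the coproporphyrinogen oxidase, and ALAS1 (0.42 ± 0.04, adjusted p = 3.1e-08), the rate-limiting enzyme outside the erythroid lineage. ALAS1 went from 64.2 to 67.9 TPM in DMSO to 38.3 to 40.8 TPM at 24 h and 87 to 96.2 TPM at 72 h. With UM171 in sgEPCR cells 1 rose, CPOX (0.67 ± 0.06, adjusted p = 6e-06; 0.64 without the 2 libraries, adjusted p = 6.8e-09), and 2 fell (27.0% and 25.1% of all genes), or 1 and 4 without the 2 (34.5% and 36.4%). UROS, the uroporphyrinogen synthase, fell by 0.53 ± 0.09 (adjusted p = 0.0005; -0.52 without the 2, adjusted p = 6.8e-06). For the difference of the 24 h responses 2 were higher and 3 lower with all libraries (21.9% and 23.1% of all genes) and without the 2 (33.6% and 35.6%), UROS by -1.17 ± 0.13 (adjusted p = 3.4e-05; -1.15 without the 2, adjusted p = 2.8e-08) and FECH, the ferrochelatase that inserts iron into the ring, by -0.92 ± 0.10 (adjusted p = 4.8e-05; -0.88 without the 2, adjusted p = 1.5e-07). FECH stood at 18.7 ± 1.3 TPM in DMSO and 30.4 ± 1.6 TPM at 24 h in control cells, whereas sgEPCR cells held 22.0 ± 3.8 TPM with DMSO and 20.3 ± 2.4 TPM with UM171. FECH means without the 2 were 24.2 and 21.7 TPM. Both limma fits lost the sgEPCR calls of CPOX and UROS and those of both differences, and total count scaling lost the fall of UROS. The median of the list was 0.12 at 72 h, -0.25 in sgEPCR cells (-0.24 without the 2) and 0.03 for the difference (0.05 without the 2). The lists are short, and these counts are given beside the shares of all genes as a description.

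Among 10 genes of heme transport and scavenging, 8 were tested, and 3 rose and 3 fell at 72 h, beside 38.8% and 36.8% of all genes. LRP1, a receptor that clears heme bound to hemopexin, rose by 2.17 ± 0.07 (adjusted p = 2e-14) and HP, haptoglobin, fell by 1.83 ± 0.11 (adjusted p = 7.7e-11). With UM171 in sgEPCR cells 3 rose and 3 fell (27.0% and 25.1% of all genes), or 4 and 3 without the 2 libraries (34.5% and 36.4%). LRP1 rose by 2.70 ± 0.25 (adjusted p = 6.7e-06; 2.80 without the 2 libraries, adjusted p = 5.3e-12), and ABCG2, a porphyrin and drug exporter, rose by 2.27 ± 0.55 (adjusted p = 0.0052; 2.32 without the 2, adjusted p = 0.0083) from at most 0.02 TPM to at most 0.11 TPM, a very low level. For the difference of the 24 h responses 3 were higher and 1 lower (21.9% and 23.1% of all genes), or 6 and 1 without the 2 (33.6% and 35.6%). They differed for LRP1 by 3.47 ± 0.34 (adjusted p = 1.9e-05; 3.59 without the 2, adjusted p = 6.3e-12) and for HP by 2.03 ± 0.46 (adjusted p = 0.0043; 2.17 without the 2, adjusted p = 6.4e-08). HP was at 16.4 ± 0.9 TPM in DMSO and 2.27 ± 0.48 TPM at 24 h in control cells, and at 4.19 ± 1.66 and 2.80 ± 1.73 TPM in sgEPCR DMSO and UM171, or 5.095 and 3.74 TPM without the 2. LRP1 was at 4.55 ± 0.20 TPM in DMSO and 2.96 ± 0.43 TPM at 24 h in control cells. In sgEPCR cells it was at 0.937 ± 0.405 TPM with DMSO and 5.65 ± 3.17 TPM with UM171, or 1.14 and 7.47 TPM without the 2. The rise of ABCG2 was lost with limma on log2(TPM + 1) and the HP difference with limma on log2(TPM + 0.1). The median of the list was 0.33 at 72 h, 0.64 in sgEPCR cells (0.61 without the 2) and 0.97 for the difference (1.11 without the 2).

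Of 10 genes of iron uptake and traffic, 9 were tested. At 72 h 4 rose and 4 fell, beside 38.8% and 36.8% of all genes, with SLC11A1, the phagosomal metal transporter, highest (3.09 ± 0.22, adjusted p = 1e-09; mean 0.16 TPM in DMSO and 1.81 TPM at 72 h), followed by TFR2, the second transferrin receptor (0.97 ± 0.09, adjusted p = 2.5e-08). In sgEPCR cells 1 rose, SLC11A1 (2.49 ± 0.50, adjusted p = 0.0016; 2.26 without the 2 libraries, adjusted p = 1.8e-05), and 3 fell (27.0% and 25.1% of all genes), or 1 and 7 without the 2 (34.5% and 36.4%), including SLC39A8, a zinc, manganese and iron importer (-0.49 ± 0.09, adjusted p = 0.00068; -0.57 without the 2, adjusted p = 3.5e-07). For the difference of the responses 0 were higher and 3 lower (21.9% and 23.1% of all genes), or 1 and 4 without the 2 libraries (33.6% and 35.6%), TFR2 by -1.63 ± 0.19 (adjusted p = 5.5e-05; -1.56 without the 2, adjusted p = 2.3e-08) and SLC39A8 by -1.37 ± 0.12 (adjusted p = 1e-05; -1.44 without the 2, adjusted p = 4.3e-10). Both limma fits lost the sgEPCR fall of SLC39A8 and both differences, and total count scaling lost that fall. The median was 0.04, -0.22 and -0.19 in the 3 comparisons, and -0.19 and -0.10 in the latter ones without the 2 libraries.

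Of 11 genes of iron storage and regulation, 6 were tested. At 72 h 3 rose and 3 fell, beside 38.8% and 36.8% of all genes, with FBXL5, the iron-sensing ligase adaptor that marks an iron regulatory protein for decay, at 0.84 ± 0.08 (adjusted p = 1.8e-08) and ACO1, which encodes the iron regulatory protein that also serves as cytosolic aconitase, at 0.72 ± 0.06 (adjusted p = 3.3e-09). In sgEPCR cells FBXL5 was the 1 that rose (1.32 ± 0.08, adjusted p = 4e-07; 1.22 without the 2 libraries, adjusted p = 1.6e-10) and 4 fell (27.0% and 25.1% of all genes), or 1 and 5 without the 2 (34.5% and 36.4%), PCBP1, an iron chaperone for ferritin, lowest (-0.77 ± 0.08, adjusted p = 1e-05; -0.76 without the 2, adjusted p = 2.1e-10). For the difference of the 24 h responses 1 was higher and 2 lower (21.9% and 23.1% of all genes), or 1 and 4 without the 2 (33.6% and 35.6%). They differed for FBXL5 by 1.33 ± 0.12 (adjusted p = 8.6e-06; 1.24 without the 2, adjusted p = 2.4e-09) and for ACO1 by -0.90 ± 0.13 (adjusted p = 0.00032; -0.97 without the 2, adjusted p = 7.7e-08). FBXL5 stood at 50.6 ± 0.9 TPM in DMSO, 52.9 ± 5.3 TPM at 24 h and 103 ± 10 TPM at 72 h in control cells, and at 27.99 ± 12.1 and 80.6 ± 22.2 TPM in sgEPCR DMSO and UM171, or 34.9 and 93.4 TPM without the 2. Both limma fits lost the fall of PCBP1 and both differences, and total count scaling lost that of ACO1. The median of the list was -0.03, -0.39 and -0.20 in the 3 comparisons, and -0.40 and -0.15 in the latter ones without the 2 libraries.

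A list of NRF2, KEAP1, NFE2, the small MAF proteins and genes taken as shared targets held 15 genes, all of them tested. Its counts are thus not those of targets alone, and the element was not searched in these genes. At 72 h 5 rose and 10 fell, beside 38.8% and 36.8% of all genes, with a median of -0.53 against 0.02 for all genes. MAFF, a small MAF partner, rose by 4.16 ± 0.16 (adjusted p = 2.9e-13), from 0.257 ± 0.081 to 4.81 ± 0.25 TPM, and NQO1, the quinone reductase long used as an NRF2 target, fell by 2.73 ± 0.12 (adjusted p = 1.1e-12). NQO1 did not follow the time course of HMOX1: it was at 29.5 ± 2.8 TPM in DMSO, 43.9 ± 4.5 TPM at 24 h, when HMOX1 was lowest among the control groups, and 4.69 ± 0.34 TPM at 72 h. In sgEPCR cells UM171 raised 7 and lowered 1 (27.0% and 25.1% of all genes), or raised 11 and lowered 2 without the 2 libraries (34.5% and 36.4%). SLC7A11, the cystine importer, rose by 2.93 ± 0.13 there (adjusted p = 4.5e-08; 2.83 without the 2, adjusted p = 9e-12) and MAFF by 2.79 ± 0.26 (adjusted p = 6.2e-06; 2.75 without the 2, adjusted p = 2.5e-08). The 24 h responses differed, higher in sgEPCR cells, for 5 genes and lower for 1 (21.9% and 23.1% of all genes), or for 11 and 1 without the 2 libraries (33.6% and 35.6%), among them OSGIN1, an oxidative stress-induced growth inhibitor (1.35 ± 0.43, adjusted p = 0.025; 1.503 without the 2, adjusted p = 2e-06), and SLC7A11 (1.31 ± 0.17, adjusted p = 0.00013; 1.21 without the 2, adjusted p = 8.2e-07). The OSGIN1 call was lost with both limma fits, with total count scaling, with the replicate block (adjusted p = 0.123), and without DMSO replicate 1, sgEPCR DMSO replicate 3, sgEPCR UM171 replicate 1 or 3, or UM171 24 h replicate 1 or 2, and that of SLC7A11 with both limma fits. Unlike HMOX1, SLC7A11 was higher with 24 h of UM171 in both genotypes, from 4.61 ± 0.98 to 14.2 ± 0.5 TPM in control cells and from 2.10 ± 0.79 to 18.9 ± 4.5 TPM in sgEPCR cells, or from 2.55 to 21.5 TPM without the 2. Between genotypes in DMSO 0 of the 15 were higher and 7 lower in sgEPCR cells (17.4% and 16.3% of all genes), or 1 and 10 without the 2 libraries (30.3% and 30.0%), with a median of -0.28 in both.

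The genes with the profile most like that of HMOX1 over the 7 group means of log2(CPM + 1) were, among 12098 candidates, ERP27 (r = 0.989), ENSG00000283103 (r = 0.975), KIDINS220 (r = 0.964), BIRC2 (r = 0.961) and RGS14 (r = 0.958). Over the 21 libraries r was 0.729, 0.902, 0.883, 0.883 and 0.940. ERP27 was highest of its group in the high mitochondrial libraries, where HMOX1 was lowest. It held 3.29 CPM there against 1.25 and 1.40 CPM in sgEPCR DMSO, and 5.50 against 2.80 and 2.93 CPM in sgEPCR UM171. A ranking without these libraries was not run. The correlation ignores the size of a change: group means spanned 108 to 154 CPM for KIDINS220 and 1.12 to 57.4 CPM for HMOX1. ERP27 is a chaperone-like protein of the endoplasmic reticulum, BIRC2 an inhibitor of apoptosis and RGS14 a regulator of G protein signalling. RGS14 held 31.8 to 37.0 TPM in DMSO, 16.7 to 20.6 TPM at 24 h and 29.7 and 30.9 TPM in the sgEPCR UM171 libraries without a high mitochondrial share, against 13.7 TPM in the other. None of the 9 other genes of heme and iron handling was among these 5. The correlations are over 7 points that share libraries with the comparisons above, and the ranking changed with the measure.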

How the data were processed

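The 10 genes, the gene lists and the tests were chosen with earlier results of these data known. Poly(A) RNA of 21 libraries was prepared with a stranded kit. Per the labels and the submitters' processing notes, the authors used CASAVA 1.8.2, Trimmomatic 0.35, STAR 2.5.1b and RSEM 1.2.28 on GRCh38, and the authors deposited for each library RSEM's expected count per gene, which splits reads between the genes they match, and TPM, divided by effective length and scaled to a fixed total. The paper's methods name kallisto and sleuth for its own statistics. The strand setting of the counting is not given in the sources used here. The 45 Y pseudoautosomal entries were summed with their X counterparts. GENCODE version 44 gave positions, overlaps and transcripts.

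The deposited expected counts, rounded to whole numbers, entered edgeR 4.0.16 (R 4.3.3) with filterByExpr, TMM, the quasi-likelihood test and Benjamini-Hochberg adjustment over all tested genes. A fit of 15 libraries (16575 genes) gave 4 time contrasts against the same DMSO group, and a fit of 12 (15901 genes) gave the sgEPCR contrasts. "Rose" and "fell" mean an adjusted p under 0.05. Errors of log2 changes are standard errors, taken as the size of the change over the root of its F statistic. Errors of levels are SD over 3 libraries. HMOX1 was not tested. The labels do not say that libraries came from separate cultures, so p-values measure the spread between these libraries, which may be technical.

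A gene of the heme synthesis list is not reported here and was left out of its counts. Genes named outside the 10 are up to 2 per list and contrast (72 h, UM171 in sgEPCR cells, difference of the responses) with the largest change among those past the threshold, and the 5 genes most like HMOX1 with an average log2 CPM above 1. The fits were tested on simulated counts with the same spread for every gene and no outlying libraries. That setting is simpler than these data, so it does not show how the fits behave with the 2 libraries of high mitochondrial share. Alternatives were scaling by upper quartile or by total count, DESeq2 1.42.0, log2(TPM + 1) or log2(TPM + 0.1) with limma 3.58.1, no filter or at least 10 counts in every library, all 21 libraries in 1 fit, the replicate block, each library left out, the 2 libraries of high mitochondrial share left out, mitochondrial genes left out, the stricter limits, TPM rescaled without mitochondrial genes, ferritin genes summed with their pseudogenes, and other measures of likeness. Figures used Python 3.11.15 and matplotlib 3.10.9.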

Additional observations from a re-analysis of the deposited data

Results flagged for a closer look

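The 24 h response to UM171 differed between sgEPCR and control cells for 4 of the 8 tested genes of the group, 2 higher and 2 lower, beside 21.9% and 23.1% of all tested genes, which is near the same share. The log2 difference, sgEPCR minus control, was 2.56 for FTH1, 0.72 for BACH1, -0.92 for BLVRB and -1.12 for TFRC. For HMOX1 it was 8.54, which was not tested and is no support, since the set was selected on the opposite directions of HMOX1. As a description, all 3 control libraries at 24 h lay below all DMSO libraries. All 3 sgEPCR UM171 libraries lay above all sgEPCR DMSO libraries. Among the named genes of the other lists the difference was 3.47 for LRP1, 2.03 for HP, 1.35 for OSGIN1, 1.33 for FBXL5, 1.31 for SLC7A11, -0.90 for ACO1, -1.17 for UROS, -1.37 for SLC39A8, -0.92 for FECH and -1.63 for TFR2. The control side of each difference sets UM171 at 24 h against DMSO libraries labelled 72 h, while the sgEPCR side sets 24 h against 24 h, and the part of that time gap was not tested.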

How the results depend on the processing

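Of the 40 calls made for the 8 genes, 22 kept direction and an adjusted p under 0.05 in every alternative fit. Every call of FTH1 and of SLC40A1 was among them. The stricter limits are not part of this count. Signs turned for HMOX2 at 6 h (0.0244 with total count scaling, 0.0355 with limma on log2(TPM + 1), 0.0360 on log2(TPM + 0.1)) and at 24 h (0.0169 and 0.0171 with these limma fits), for BACH1 at 6 h (0.0428 with total count scaling, 0.0176 and 0.0180 with limma), for FTL with UM171 in sgEPCR cells (0.11 with both), and in sgEPCR against control DMSO for TFRC (-0.0413 and -0.0426 with limma), BLVRA (-0.24 with log2(TPM + 0.1), -0.17 with log2(TPM + 1)) and HMOX2 (0.0214 without the 2 libraries). Total count scaling moved the median of all genes by 0.18 at 6 h and by -0.25 between genotypes in DMSO. Leaving out 1 library turned 5 uncalled values near 0: BACH1 at 48 h (-0.0648 to 0.00102), BLVRB (-0.0178 to 0.21) and FTL (-0.40 to 0.0736) in sgEPCR cells, HMOX2 between genotypes (-0.13 to 0.0292) and FTL for the difference (-0.14 to 0.33).

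HMOX1's difference moved to -0.24 at 6 h with total count scaling, and with log2(TPM + 1) to -3.58 at 24 h, -3.26 at 72 h and 7.09 for the difference of the responses. With all 21 libraries in 1 fit, 4 of the genes and 6558 of all genes were called at 6 h. At the stricter limits the genes called were 1, 2, 2 and 3 over the 4 times, 3 in sgEPCR cells, 1 between genotypes and 2 for the difference, and all genes called were 1165, 2276, 2719, 3448, 1642, 452 and 1236. Both limma fits called 2 of the genes in sgEPCR cells, 1 between genotypes and 1 for the difference, and of all genes 3196, 1481 and 2011 with log2(TPM + 1) and 3198, 1450 and 1748 with log2(TPM + 0.1). Without the 2 libraries 5 of the genes and 9868 of all genes were called between genotypes, and 11328 of all genes for the difference. The cause of these shifts was not tested.

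Deviations of same-numbered libraries correlated from -0.30 to 0.29 between control groups, without a common sign. Between the sgEPCR groups the correlations were -0.88, -0.88 and 0.80. There the 2 libraries of high mitochondrial share carry different replicate numbers, so pairing cannot be judged. With the replicate block, HMOX2 (log2 change -0.57, edgeR adjusted p = 0.0569) and BLVRA (0.60, adjusted p = 0.0577) in sgEPCR cells lost their calls, as did OSGIN1 for the difference of the responses, and no other call of the 8 genes changed; the contrast between genotypes could not be fitted. Under Spearman's rho KIDINS220 ranked 16 and RGS14 39 among genes like HMOX1, and under log2(TPM + 1) ERP27 ranked 10, ENSG00000283103 92, KIDINS220 21, BIRC2 221 and RGS14 6. BACH2, with at most 6 counts per library, was not tested.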
